A study of Mus musculus with 12 samples.

Results

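In distal forelimb buds of E11.5 mouse embryos that lack HOXA13 and HOXD13, 4416 autosomal regions carried called peaks of H3K27ac and of H3K27me3 on the same base pairs. These doubly marked regions were found by intersecting the H3K27ac and the H3K27me3 peak lists of the double mutant on the 19 autosomes, with an overlap of at least 1 bp. Peaks of both lists were first merged into 51004 regions, of which 8.66% were doubly marked, 32478 carried H3K27ac only (acetyl-only) and 14110 H3K27me3 only (methyl-only). The double mutant is Hoxa13-/-;Hoxd13-/- on a mixed C57BL/6 and CD1 background. Its Hoxa13 allele has a neomycin cassette in the coding region and its Hoxd13 allele a lacZ reporter in the first exon, so both factors are missing from every cell of the embryo and not from the limb alone. Wild-type E11.5 forelimbs of the same mixed background were profiled for both marks and for HOXA13 and HOXD13, and forelimb buds of CD1 embryos at E10.5 for H3K27me3. The series text describes the E11.5 tissue as distal forelimb, while the protocol calls its cells ZAP cells, a term it does not spell out. Each of the 7 profiles came from 1 library, and the labels do not say whether embryos were pooled. No comparison between libraries therefore has a replicate check, and none is given a p-value. Genes were not placed on the peaks, because the lists are on mm9 and the annotation at hand is on GRCm38. The tissue could thus not be checked against marker genes, and regions are named by their mm9 positions.

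H3K27ac and H3K27me3 are alternative states of the same histone residue, so a single histone tail cannot carry both. Acetylation is found at active promoters and enhancers. Trimethylation is written by Polycomb repressive complex 2 and covers silent developmental genes, the Hox clusters among them, which in limb buds are opened step by step along the limb axes. In a chromatin sample from many cells, peaks of both marks at the same place can come from different cells, from different alleles or from neighbouring nucleosomes, and from peak lists these cannot be told apart.

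The double-mutant lists held 37433 autosomal H3K27ac peaks covering 73.2 Mb and 18973 autosomal H3K27me3 peaks covering 60.0 Mb. Of the acetyl peaks, 4954 overlapped H3K27me3, or 13.2% (12.9 to 13.6). These brackets, here and below, are Wilson 95% intervals in the unit of the value, and they cover the counting of peaks or regions and not the spread between embryos. Of the H3K27me3 peaks, 4863 overlapped H3K27ac, or 25.6% (25.0 to 26.3). The marks shared 6.49 Mb, which is 8.86% of all acetylated and 10.8% of all trimethylated base pairs. Read depth is unknown from the lists, and a deeper library gives a longer list, so these shares belong to these lists. With the H3K27ac list shortened by score to the length of the H3K27me3 list, the number of doubly marked regions was 2569. The share of H3K27me3 peaks that overlapped H3K27ac was then 15.6%.

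Most doubly marked regions were simple. In 3670 of 4416 (83.1%, 82.0 to 84.2) a single H3K27ac peak met a single H3K27me3 peak. Another 323 held several acetyl peaks on 1 H3K27me3 peak, 349 held 1 acetyl peak that met several H3K27me3 peaks, and 74 held several of each. The median doubly marked region was 4046 bp wide (quartiles 2684 and 6252), against 1612 bp for acetyl-only and 1394 bp for methyl-only regions. Merging makes a doubly marked region wider by construction. A median of 1098 bp per region was shared by both marks (quartiles 814 and 1577), or 29.2% of the region.

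The acetyl peak was usually the smaller partner. In 2373 cases (47.9% of doubly marked acetyl peaks, 46.5 to 49.3) it lay wholly inside 1 H3K27me3 peak. In 1862 cases (37.6%, 36.2 to 38.9) it crossed 1 edge of an H3K27me3 peak, in 292 (5.89%, 5.27 to 6.58) it contained a whole H3K27me3 peak, and in 427 (8.62%, 7.87 to 9.43) it met several. The arrangements differed in peak size. Acetyl peaks inside H3K27me3 had a median width of 1208 bp and lay in H3K27me3 peaks with a median width of 5631 bp. Acetyl peaks that contained an H3K27me3 peak had a median width of 2854 bp, and the contained peaks one of 996 bp. Where the acetyl peak lay inside, its nearest H3K27me3 edge was a median of 1349 bp away. At edges the overlap had a median of 802 bp (quartiles 525 and 1079). In wild type 44.5% of doubly marked acetyl peaks lay inside (43.0 to 45.9), 42.3% crossed an edge (40.9 to 43.8) and 3.25% contained a whole H3K27me3 peak (2.76 to 3.81). Wild-type H3K27me3 peaks were wider, with a median of 2235 bp against 1682 bp in the double mutant, and the part of this in the difference was not tested.

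**Figure D1:**
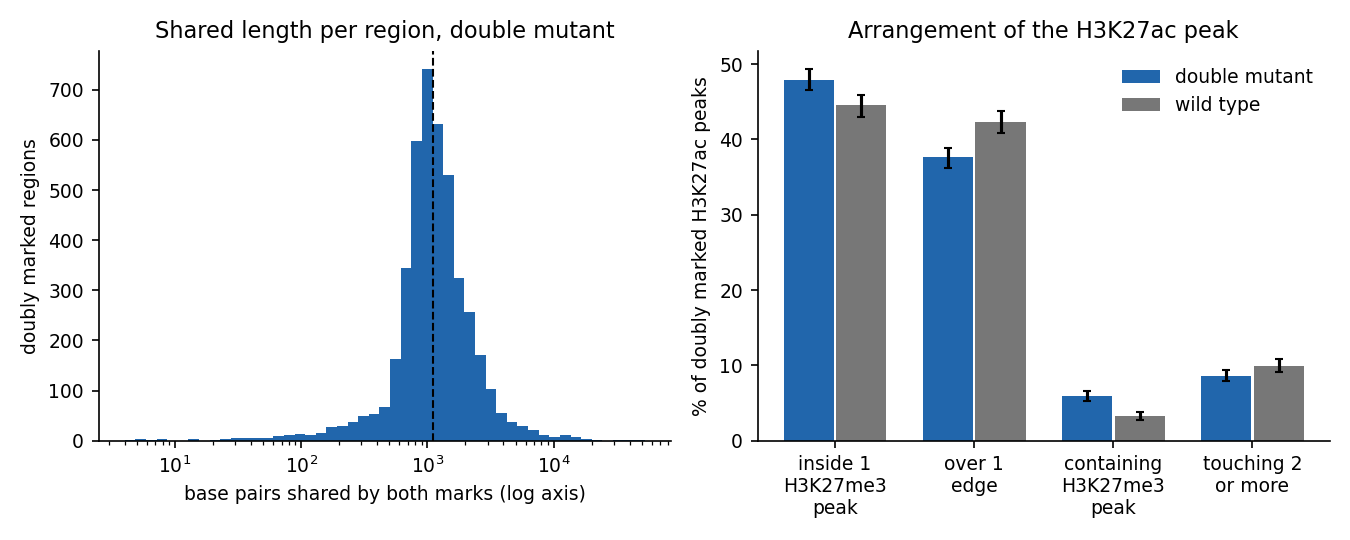
Left, histogram of the base pairs shared by both marks in each of the 4416 doubly marked regions of the double mutant (log axis, dashed line at the median of 1098 bp). Right, percentage of doubly marked H3K27ac peaks in each arrangement, double mutant (blue) and wild type (grey), with Wilson 95% intervals; the inside arrangement was the most frequent in both, at 47.9% and 44.5%.

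Around the 1 bp limit the classes were not far apart for a small number of peaks. Of 5401 overlapping pairs, 119 shared under 100 bp, 633 shared under 500 bp and 4768 shared 500 bp or more. On the other side of the limit, 94 acetyl peaks without overlap had an H3K27me3 peak within 100 bp and 651 had 1 within 1000 bp. Most acetyl-only peaks were far from H3K27me3, at a median of 64751 bp from the nearest peak.

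Doubly marked H3K27me3 peaks tended to be wider and to score higher than methyl-only ones. The share that overlapped H3K27ac was 8.67% (7.82 to 9.61) in the narrowest quintile of H3K27me3 width, 26.3% (25.0 to 27.8) in the middle one and 41.6% (40.1 to 43.2) in the widest. A wider peak has more base pairs that another list can meet. The deposited score of a peak follows its significance over input, from 50 upward, with many peaks at 3100. Its median was 924 for doubly marked and 154 for methyl-only H3K27me3 peaks. Acetyl peaks showed no such gradient. Their doubly marked share was 13.2% (12.4 to 14.0) in the narrowest quintile, 15.3% (14.5 to 16.2) in the middle one and 11.2% (10.6 to 12.0) in the widest. Median widths were 1493 bp for doubly marked and 1613 bp for acetyl-only peaks, and median scores 279 and 236.

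The first question about these regions was whether H3K27me3 was already there at E10.5. It was called in 3571 of the 4416, or 80.9% (79.7 to 82.0), against 21.4% of all 51004 double-mutant regions. Among methyl-only regions the share was 45.0% (44.2 to 45.9), and among acetyl-only regions 2.97% (2.79 to 3.16). The chromosomes were alike in this, from 75.4% on chromosome 18 to 84.8% on chromosome 7. Where E10.5 H3K27me3 was called, it covered a median of 81.3% of the doubly marked region (quartiles 59.2 and 93.9). In 3453 of the 3571 regions it reached the base pairs that carried both marks later. The E10.5 library differs from the E11.5 libraries in strain, in antibody supplier and in the part of the limb, so stage cannot be told apart from these.

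The excess over methyl-only peaks was present at every width. Among all 18973 H3K27me3 peaks of the double mutant, 53.5% overlapped an E10.5 peak, 78.1% of the doubly marked ones (76.9 to 79.2) and 45.0% of the methyl-only ones (44.2 to 45.9). In the narrowest quintile the shares were 34.3% (29.4 to 39.6) for doubly marked and 20.2% (18.9 to 21.6) for methyl-only peaks. In the middle quintile they were 65.4% (62.4 to 68.3) and 42.3% (40.4 to 44.1), and in the widest 97.7% (96.8 to 98.3) and 87.9% (86.5 to 89.2). With peaks split by quintiles of width and of score together, 13 bins held at least 20 peaks of each class. The doubly marked share was higher in 13 of the 13, by 3.62 to 32.0 percentage points with a median of 16.0. The smallest differences were in the highest score quintile, where nearly all H3K27me3 peaks overlapped E10.5 peaks.

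**Figure D2:**
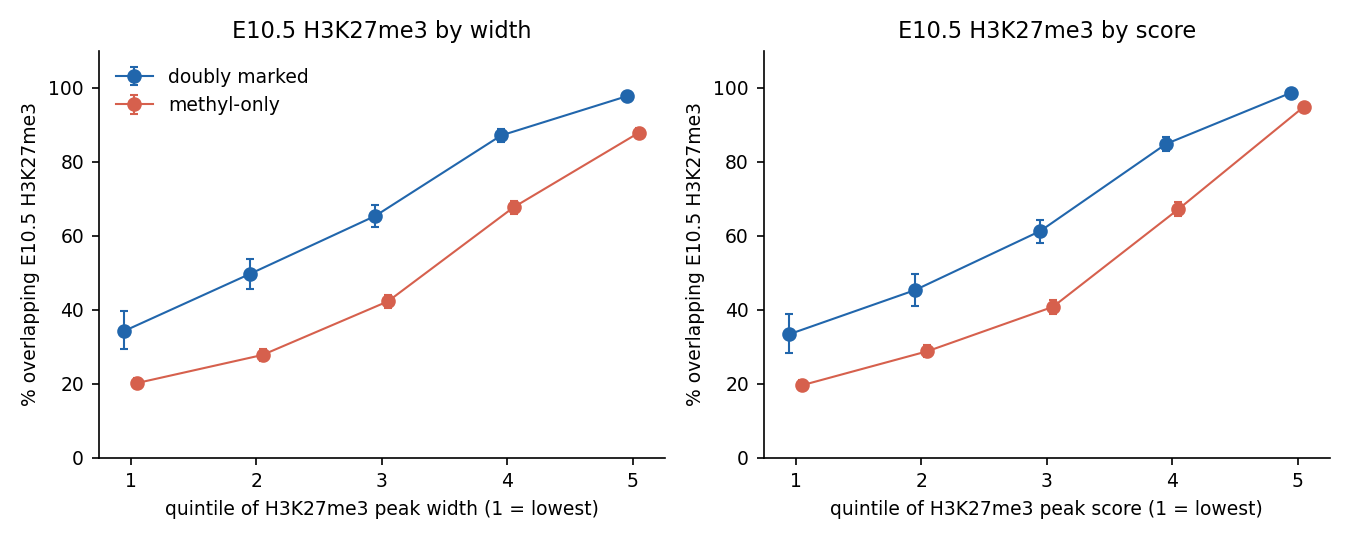
Percentage of double-mutant H3K27me3 peaks that overlapped an E10.5 H3K27me3 peak, by quintile of peak width (left) and of peak score (right), for doubly marked (blue) and methyl-only peaks (red), with Wilson 95% intervals. Doubly marked peaks lay above methyl-only peaks in each quintile, for example at 65.4% against 42.3% in the middle quintile of width.

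The geometry of the overlap went with the E10.5 state. E10.5 H3K27me3 was called at 92.0% (90.8 to 93.0) of acetyl peaks inside H3K27me3, at 81.3% (77.3 to 84.7) of those that met several H3K27me3 peaks, at 69.1% (66.9 to 71.1) of those across an edge and at 41.4% (35.9 to 47.2) of those that contained an H3K27me3 peak. Among all double-mutant acetyl peaks the share was 13.1%. The widths of the H3K27me3 peaks followed the same order only at its ends, with medians of 5631 bp for the inside and 996 bp for the containing arrangement.

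At the acetylated spot itself the E10.5 mark had a notch. Over the centres of doubly marked acetyl peaks, 42.0% were covered by E10.5 H3K27me3, against 62.3% and 61.1% at 1000 bp to either side. Double-mutant H3K27me3 covered 73.4% of the same centres and 71.3% and 69.6% of the flanking points, and wild-type E11.5 H3K27me3 79.2%, 78.3% and 76.2%. Over all doubly marked acetyl peaks the E11.5 lists thus had no notch. These peaks were chosen for their overlap with double-mutant H3K27me3, so its coverage at their centres is partly set by the rule. At inside peaks it is 100% by construction. The wild-type and E10.5 lists were not used in that choice. By arrangement, the E10.5 notch was present at inside, edge and several-peak acetyl peaks, and not at the 292 that contained an H3K27me3 peak, with 26.7% at the centre against 22.3% and 22.9%. Acetyl peaks that met several H3K27me3 peaks had a notch in double-mutant H3K27me3 too, at 57.8% against 85.5% and 81.3%, as gaps between peaks give by construction. At these peaks wild-type E11.5 H3K27me3 had a notch as well, at 73.8% against 88.3% and 86.2%, and E10.5 H3K27me3 was at 24.8% against 56.7% and 60.4%. Of the 1590 acetyl peaks that lay inside an H3K27me3 peak of the widest quintile, 61.6% had E10.5 H3K27me3 at the centre, and 90.9% and 89.8% at 1000 bp. At the centres of the 2214 methyl-only peaks of the same quintile, 78.4% were covered, and 79.5% and 79.7% at 1000 bp. The notch was present with and without a wild-type acetyl peak. Inside peaks with wild-type H3K27ac had 51.6% at the centre, against 81.4% and 80.2%, and those without had 70.3%, against 86.7% and 86.6%. Acetylation was not profiled at E10.5. The E10.5 list was made with another antibody, and the part of antibody or of peak shape in the notch was not tested.

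**Figure D3:**
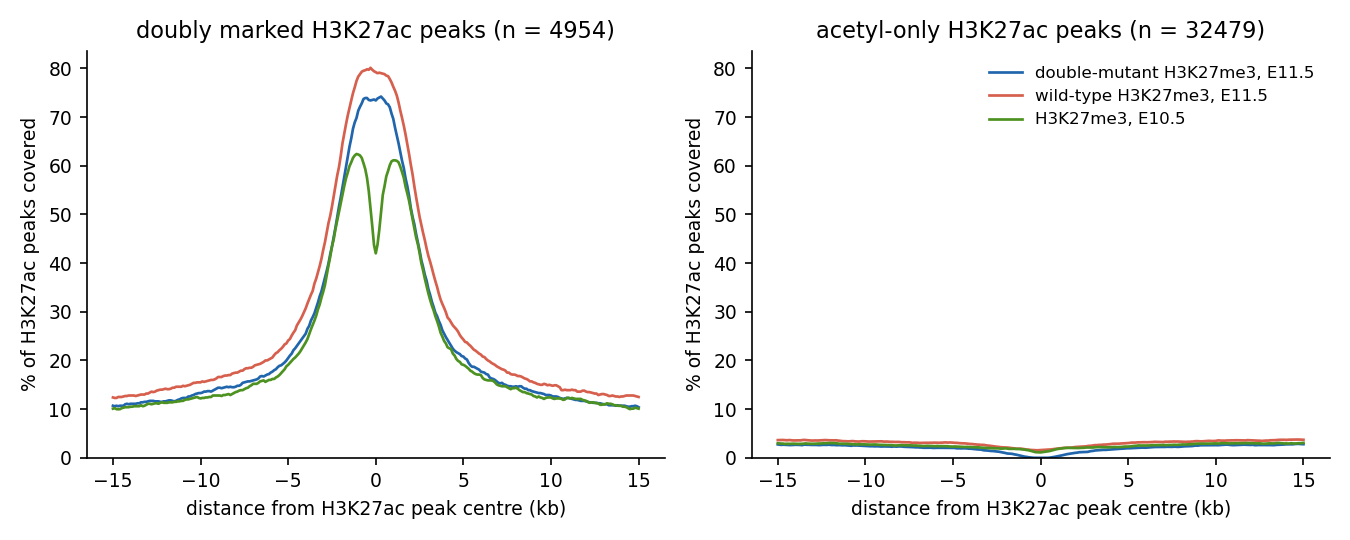
Percentage of H3K27ac peaks of the double mutant that were covered by H3K27me3 of the double mutant (blue), of wild type (red) and of E10.5 forelimb buds (green), by distance from the H3K27ac peak centre in kb, for doubly marked (left) and acetyl-only peaks (right). In the left panel the E10.5 line drops to 42.0% at the centre from 62.3% at 1000 bp, while the E11.5 lines do not drop. Peaks of the left panel were chosen for overlap with double-mutant H3K27me3, which partly sets the blue line. In the right panel all 3 lines stay under 4%.

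Coverage was also counted in base pairs, with all arrangements together. Width of the H3K27me3 peak and position at its edge thus enter these values, besides the place at the acetyl peak centre. E10.5 H3K27me3 covered 63.9% of the 6.49 Mb that carried both marks. It covered 82.7% of the 14.9 Mb of methyl-only flanks in the same regions, and 12.7% of their 3.17 Mb of acetyl-only flanks. In methyl-only regions it covered 58.0%. Wild-type H3K27me3 covered 96.9% of the shared base pairs and 97.7% of the methyl-only flanks. Wild-type H3K27ac covered 63.5% of the shared base pairs, 79.9% of the acetyl-only flanks and 1.81% of the methyl-only flanks.

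The 845 regions with no E10.5 H3K27me3 differed in score and width. Their best double-mutant H3K27me3 score had a median of 179, against 1970 in the other 3571 regions, while the best H3K27ac score had a median of 533 against 290. They were narrower, with a median width of 2603 bp against 4505 bp. Of the 845, 87.1% (84.7 to 89.2) had wild-type H3K27me3 and 83.7% (81.0 to 86.0) wild-type H3K27ac. HOX13 peaks, meaning peaks of HOXA13 or HOXD13, were found in 39.9% of them (36.6 to 43.2) and in 26.4% (25.0 to 27.8) of the regions with E10.5 H3K27me3. Peaks of low score overlap another list less often, so the E10.5 state of these regions cannot be told apart from the score.

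The wild-type state of the doubly marked regions was next. H3K27me3 was nearly always called there too, in 96.7% (96.1 to 97.2), against 32.6% of all double-mutant regions and 79.9% (79.2 to 80.5) of methyl-only regions. This gap depended on width. In the narrowest quintile of H3K27me3 width, 75.4% (70.4 to 79.7) of doubly marked and 56.8% (55.2 to 58.4) of methyl-only peaks had wild-type H3K27me3. In the widest the shares were 99.9% and 99.3%. H3K27ac was called in 73.6% (72.3 to 74.9) of the doubly marked regions, against 51.2% of all regions. Both marks overlapped in wild type in 3104 regions, or 70.3% (68.9 to 71.6), against 8.01% of all regions. H3K27me3 was the only wild-type mark in 1128 regions (25.5%), H3K27ac the only one in 107 (2.42%), and neither was called in 38 (0.861%). The share of doubly marked acetyl peaks that had a wild-type acetyl peak, 70.1% (68.9 to 71.4), was close to the 69.5% (69.0 to 70.0) of acetyl-only peaks. Wild-type acetylation differed by the place within H3K27me3. A wild-type acetyl peak was called at 54.2% (52.2 to 56.2) of the inside peaks and at 82.5% (80.7 to 84.2) of the edge peaks. Inside peaks had lower scores, with a median of 151 against 463 for edge peaks, and wild-type overlap went with score. In the lowest quintile of H3K27ac score 21.5% (18.8 to 24.5) of doubly marked and 26.8% (25.8 to 27.9) of acetyl-only peaks had a wild-type acetyl peak. In the highest quintile 99.7% and 100% had 1.

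**Figure D4:**
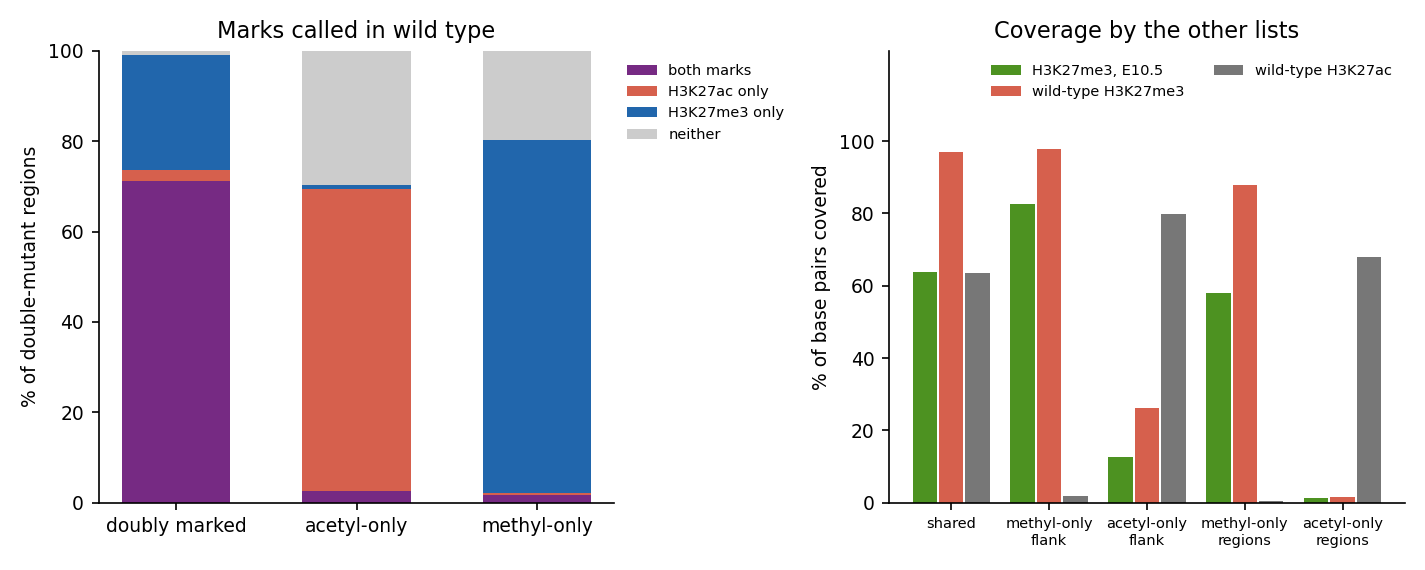
Left, percentage of doubly marked, acetyl-only and methyl-only regions of the double mutant by the marks called in wild type. Right, percentage of base pairs covered by E10.5 H3K27me3 (green), wild-type H3K27me3 (red) and wild-type H3K27ac (grey) in the shared base pairs, in the flanks of doubly marked regions that carry 1 mark, and in regions of a single mark; E10.5 H3K27me3 covered 63.9% of shared base pairs and 82.7% of the methyl-only flanks.

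Where double marking was called in a single genotype, the genotypes differed in the mark that was missing. Of the 1312 double-mutant regions with no overlap of the marks in wild type, 1128 (86.0%, 84.0 to 87.7) had wild-type H3K27me3 alone. H3K27ac was the mark that was not called. Their best double-mutant H3K27ac score was low, with a median of 105 against 514 in regions doubly marked in both genotypes, and their best H3K27me3 score had a median of 1957 against 998. In the opposite direction, 939 of 4030 doubly marked regions of wild type were not doubly marked in the double mutant. Of these, 601 (64.0%, 60.9 to 67.0) had H3K27ac alone there, and 193 (20.6%, 18.1 to 23.3) H3K27me3 alone. E10.5 H3K27me3 was called in 82.5% (80.3 to 84.5) of merged regions doubly marked only in the double mutant, in 80.8% (79.4 to 82.1) of those doubly marked in both genotypes and in 42.7% (39.5 to 45.9) of those doubly marked only in wild type. The median widths of these regions were 4034, 4998 and 2925 bp, in that order. E10.5 overlap rose with H3K27me3 width, and the part of width in these shares was not tested. The double-mutant H3K27ac list is longer than the wild-type one (37433 against 31220 autosomal peaks), and its H3K27me3 list covers less (60.0 against 74.3 Mb), both in the direction of these differences. Depth and the marks themselves cannot be told apart here. With the lists of each mark reduced to equal length by score in both genotypes, the larger number changed sides. Then 920 regions were doubly marked in the double mutant only and 991 in wild type only. The share with H3K27me3 alone in wild type was then 81.8%, and the share with H3K27ac alone in the double mutant 54.1%. With only the double-mutant H3K27ac list shortened, to the length of its H3K27me3 list, 219 regions were doubly marked in the double mutant only and 1686 in wild type only, and these shares were 52.5% and 28.9%. The wild-type lists kept their full length in that setting, with 31220 H3K27ac peaks against 18973 in the double mutant. With the X and Y included, the counts were 1323 in the double mutant only and 1346 in wild type only. On the X the wild-type list had 9251 H3K27me3 peaks and the double-mutant list 385, and embryo sex is not labelled.

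HOXA13 and HOXD13, the homeodomain factors missing from the mutant, were mapped in wild type only. A HOX13 peak was found in 29.0% of doubly marked regions (27.6 to 30.3), in 30.1% of acetyl-only (29.6 to 30.6), in 10.1% of methyl-only regions (9.64 to 10.6) and in 24.5% of all regions. HOXA13 was found in 26.4% and HOXD13 in 21.3% of doubly marked regions. Doubly marked regions are wide, so the overlap was also counted in base pairs. HOX13 peaks covered 14.1% of the shared base pairs, 22.3% of the acetyl-only flanks, 4.11% of the methyl-only flanks, 18.4% of acetyl-only and 3.11% of methyl-only regions. Among acetyl peaks of like width, HOX13 peaks were less frequent at doubly marked than at acetyl-only peaks in each quintile but the widest. In the middle quintile of width 19.7% (17.5 to 22.1) of doubly marked and 25.0% (23.9 to 26.0) of acetyl-only peaks had a HOX13 peak. In the widest quintile the shares were 56.5% (53.2 to 59.8) and 52.2% (51.0 to 53.4). By arrangement, HOX13 peaks were found at 17.1% (15.6 to 18.6) of inside, 26.6% (24.7 to 28.7) of edge, 41.2% (36.6 to 45.9) of several-peak and 46.6% (40.9 to 52.3) of containing acetyl peaks. The regions doubly marked only in the double mutant had HOX13 peaks in 19.5% (17.4 to 21.8), and those doubly marked only in wild type in 39.8% (36.7 to 43.0). Those doubly marked in both genotypes had them in 33.7% (32.1 to 35.4). HOX13 overlap of doubly marked acetyl peaks rose with H3K27ac score, from 15.7% (13.4 to 18.4) in the lowest quintile to 49.3% (45.8 to 52.8) in the highest. The part of score in the differences between these sets of regions was not tested.

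Doubly marked regions were spread over every autosome, from 131 on chromosome 16 to 372 on chromosome 2. They made up 7.35% of regions on chromosome 13 and 10.9% on chromosome 15. They were found in 1568 windows of 1 Mb, of which 562 held a single region and 273 held 5 or more. The windows with 5 or more held 43.1% of the doubly marked regions. No such counts are given for all 51004 regions, so clustering beyond the density of peaks was not tested. The 103 regions with 5000 shared bp or more held 15.8% of the shared base pairs. Of these 103, 100 (97.1%, 91.8 to 99.0) were doubly marked in wild type too, 92 (89.3%, 81.9 to 93.9) had E10.5 H3K27me3 and 92 had a HOX13 peak. Among all double-mutant regions, 8.01% had both marks overlapping in wild type, 21.4% had E10.5 H3K27me3 and 24.5% had a HOX13 peak. The median width of the 103 regions was 15574 bp. Of the 3366 regions with at least 500 and under 2000 shared bp, 66.3% (64.7 to 67.9) were doubly marked in wild type and 23.0% (21.6 to 24.5) had a HOX13 peak. These regions had a median width of 3752 bp. The part of width in these differences was not tested.

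The region with the most shared base pairs was on chromosome 2, at chr2:74480546-74554651 of mm9. Its marks shared 52697 of 74106 bp. It held 5 double-mutant acetyl peaks, the widest of 48453 bp from 74506199 to 74554651. Before that peak, 4 short ones of 663 to 2347 bp lay between 74493952 and 74506193. Wild type had 3 acetyl peaks there, the widest of 53397 bp from 74486156 to 74539552. On the left of the region the double mutant thus had short peaks or none where wild type had 1 unbroken peak. H3K27me3 covered 98.9% of the region in the double mutant, 100% in wild type and 75.3% at E10.5. The region held 18 HOXA13 and 17 HOXD13 peaks. Hoxd13 itself is on chromosome 2, and whether the region holds it was not determined on this build.

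The widest doubly marked region looked different. At chr15:102729196-102903283, 1 double-mutant H3K27me3 peak of 174088 bp carried 11 acetyl peaks, the highest number of any doubly marked region, with 29939 shared bp. The acetyl peaks were 1026 to 8365 bp wide and lay between 102767134 and 102841420. Wild type had 5 acetyl peaks there, which covered 4.20% of the region against 17.2% in the double mutant. H3K27me3 covered 100% of it in both genotypes, and 87.9% at E10.5. It held 17 HOXA13 and 17 HOXD13 peaks. Chromosome 15 carries the Hoxc genes, which were not placed on this build either.

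Other regions with long shared stretches carried both marks in both genotypes. At chr8:59787713-59835528 the marks shared 38492 of 47816 bp, and H3K27ac covered 80.5% of the region in the double mutant and 80.8% in wild type. At chr14:122858830-122892295 they shared 31301 of 33466 bp, with H3K27ac over 93.6% in 3 peaks and 84.2% in 5 peaks. At chr3:99037862-99071009 they shared 21831 of 33148 bp, with H3K27ac over 66.1% and 70.1%. E10.5 H3K27me3 covered 91.0%, 82.5% and 82.7% of these regions, in that order. HOXA13 peaks numbered 8, 7 and 1. A region at chr5:120068976-120141540 held 7 acetyl peaks on 1 H3K27me3 peak in the double mutant and 3 acetyl peaks in wild type, with 16025 of 72565 bp shared in the double mutant. Acetylation covered 22.1% of it in the double mutant and 16.5% in wild type.

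**Figure D5:**
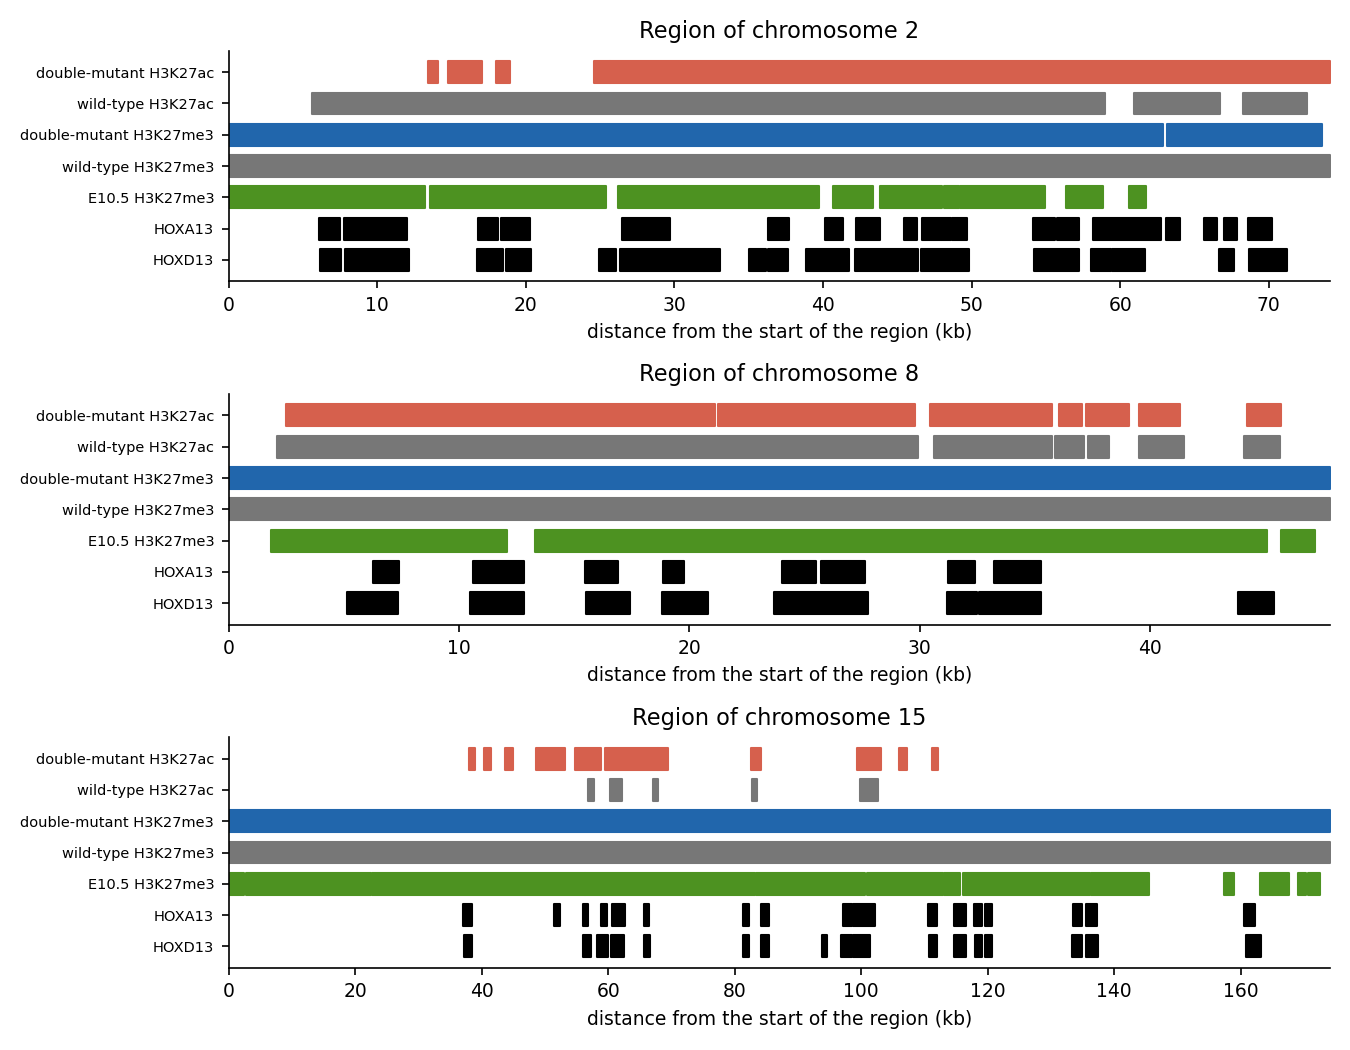
Called peaks of the 7 lists along 3 doubly marked regions, by distance in kb from the start of the region: those on chromosomes 2, 8 and 15 with 52697, 38492 and 29939 shared bp. Bars are peaks, drawn to scale and clipped at the region's ends; on chromosome 15 the double mutant had 11 acetyl peaks and wild type 5 over H3K27me3 that covered the whole region in both.

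Other regions were named for less frequent histories. All of these shared fewer base pairs than the regions named above, most of which were chosen for shared length. Each set gives the 3 regions with the highest value of the lower of their H3K27ac and H3K27me3 scores. Among regions without E10.5 H3K27me3 these were chr12:34637620-34656817, with 13438 shared bp, and 2 neighbours at chr2:33555575-33565054 and chr2:33565108-33577372, with 9203 and 11542 shared bp. All 3 carried both marks in wild type and had HOXA13 and HOXD13 peaks. Among regions with H3K27me3 but no H3K27ac in wild type, they were chr2:154842962-154847460 with 2828 shared bp, chr10:21867730-21883341 with 1063 and chr2:164996059-165010633 with 3532. Their double-mutant H3K27ac scores were 1443, 1001 and 948. E10.5 H3K27me3 was called in all 3, over 38.6%, 70.6% and 97.2% of the region.

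Where E10.5 and the double mutant had H3K27me3 and wild type had none, scores were low. The 3 such regions with the highest lower score were chr9:61567195-61569765, chr6:135116912-135118858 and chr18:47695794-47698473, with double-mutant H3K27me3 scores of 137, 135 and 129. All 3 had H3K27ac in wild type. Regions with neither mark in wild type numbered 38 and were narrow, with a median width of 1538 bp. The 3 chosen were chr9:21968267-21970233, chr2:154777675-154778967 and chr18:38733096-38734641, with 772, 1068 and 1138 shared bp. None of the 3 had a HOX13 peak, and E10.5 H3K27me3 was called in the last of them. Of all 38, 8 (21.1%, 11.1 to 36.3) had a HOX13 peak and 12 (31.6%, 19.1 to 47.5) had E10.5 H3K27me3. Among all double-mutant regions these shares were 24.5% and 21.4%.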

How the data were processed

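Peak lists of 7 chromatin immunoprecipitation libraries were used, 1 per group, with groups taken from the sample titles. Bowtie 0.12.7, MACS 1.4 and mm9 are named in the submitters' processing notes, without settings, and the file names set each list against an input. The labels name 5 inputs for the 7 lists and none for H3K27me3 at E11.5, so which input those H3K27me3 peaks and scores rest on is not given in the sources used here. The deposited score of each peak was read as MACS's transformed p-value, in which the lowest score found, 50, stands for 1e-05. It depends on depth, and was mostly used within 1 list. The rule for named regions, however, took the lower of an H3K27ac and an H3K27me3 score. An alternative also applied the same cut-off of 100 to every list. Read depth per library is not given by the lists, so precision is that of counting peaks. In each list 6 to 16 peaks lay beyond the length that GRCm38 gives chromosome 1, so no gene or sequence of that build was assigned and the planned gene lists were not used. The RefSeq gene table of GRCm38 gave only the chromosomes of Hox genes.

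Overlaps were computed with Python 3.11.15 and NumPy 2.4.6, and Wilson intervals with SciPy 1.17.1; the interval functions passed 140 of 140 checks on simulated peaks. Touching peaks were merged, and 1 acetyl peak touched H3K27me3 without sharing a base pair. Quintiles were taken within 1 list. Regions named in the text followed a rule: the 5 with the most shared bp, the 3 with the most H3K27ac peaks, and the 3 with the highest lower score in each of 4 classes of E10.5 and wild-type state. The members, lists and rules were chosen with earlier results of these data known. X and Y peaks were left out, and 6 alternatives were planned. Equal list lengths in both genotypes, and the results on regions doubly marked in a single genotype, were added after seeing the data.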

Additional observations from a re-analysis of the deposited data

How the results depend on the processing

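Of 70 recomputed values, 43 moved. The other 27 lay within the 95% interval of the reported value or, for the number of regions, within 1.5 times of it. For the share of shared base pairs, that interval treats each shared stretch as covered or not covered. In fact 48.5% of stretches were partly covered by E10.5 H3K27me3, so it does not measure the spread of that share. The values as reported were 4416 doubly marked regions, 25.6% of H3K27me3 and 13.2% of H3K27ac peaks overlapping, a median of 1098 shared bp, E10.5 H3K27me3 in 80.9% of regions and over 63.9% of shared base pairs, double marking in wild type in 70.3%, HOX13 peaks in 29.0%, H3K27me3 alone in wild type in 86.0% of mutant-only regions and H3K27ac alone in the mutant in 64.0% of wild-type-only regions. The number of regions fell to 3255 with only peaks scored 100 or higher, to 3732 with an overlap of at least 50% of either peak, to 3930 with lists of equal length in both genotypes, to 4053 with at least 500 bp and to 4296 with peaks joined, and was 4504 with the X and Y. In the same order, and omitting other values that did not move, double-mutant lists of equal length gave 2569, 15.6%, 14.3%, 1300 bp, 77.9%, 60.4%, 91.5%, 34.3%, 52.5% and 28.9%. In that setting only the double-mutant H3K27ac list was shortened. Keeping only peaks scored 100 or higher gave 26.7% of H3K27me3 and 12.8% of H3K27ac peaks, 1253 bp, E10.5 shares of 74.3% and 58.1%, HOX13 peaks in 20.4%, and 91.6% and 68.6% for the single-genotype regions. An overlap of at least 50% of either peak gave 20.5% and 11.0% of peaks, 1158 bp, E10.5 in 82.2%, double marking in wild type in 62.4%, and 75.5% and 50.4%. An overlap of at least 500 bp gave 22.9% and 12.0%, 1138 bp, 82.3%, 68.5%, 83.4% and 57.2%. Joining peaks closer than 1000 bp gave 31.1% and 14.1%, 1133 bp and E10.5 over 69.8% of shared base pairs. Lists of equal length in both genotypes, chosen after seeing the data, gave 23.0% and 13.8%, 1163 bp, double marking in wild type in 76.6%, and 81.8% and 54.1%. Including the X and Y moved 1 value, the share of wild-type-only regions with H3K27ac alone, to 71.8%. The cause of these moves was not tested. No paired analysis was possible because each group holds 1 library. Read depth is unknown, so a peak that is not called may be below detection.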

Other observations

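The X chromosome was outside the autosomal intersection, and there the genotypes differed in H3K27me3. In the double mutant, 96 of 677 X-linked H3K27ac peaks overlapped H3K27me3, or 14.2% (11.8 to 17.0), close to the autosomal share. In wild type 523 of 708 did, or 73.9% (70.5 to 77.0). The X held 88 doubly marked regions in the double mutant, 85 of them with E10.5 H3K27me3, and 479 in wild type, 261 of them with E10.5 H3K27me3. The share of all X regions with E10.5 H3K27me3 is not given here, so these counts have no background beside them. Of 17556 E10.5 peaks, 15077 were autosomal, against 18973 of 19358 double-mutant H3K27me3 peaks. The wild-type list had 9251 H3K27me3 peaks on the X and the double-mutant list 385. The labels do not give the sex of the embryos.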
